A study of Mus musculus with 16 samples.

Results

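The genes described here were the 4 Id genes (Id1, Id2, Id3 and Id4), the inhibitory SMAD genes Smad6 and Smad7, the ligand gene Bmp4, the receptor gene Bmpr1a, and the SMAD genes Smad1 and Smad5. They were chosen by name, as the rows of the count table whose Ensembl identifier carries one of these 10 symbols, and make up 10 of the 52636 gene identifiers in the table. Bone morphogenetic proteins (BMPs) are secreted ligands that bind paired serine/threonine kinase receptors. The activated receptors phosphorylate SMAD1 and SMAD5, which enter the nucleus with SMAD4 and switch on target genes, among them the Id genes and the inhibitory SMADs. Id proteins bind E proteins and keep them off DNA, inhibitory SMADs block the receptors and the other SMADs, and in mouse embryonic stem cells BMP signalling and Id proteins are known for holding back differentiation, while the MEK-ERK pathway promotes it.

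RNA was measured in a mouse embryonic stem cell line, CRAFR26, which carries a c-RAF kinase construct that tamoxifen switches on. The line was grown in N2B27 medium with LIF (1000 U/ml), the GSK3 inhibitor Chir (3 µM) and the MEK inhibitor PD03 (1 µM). All 4 groups had first been moved for 48 h to 250 nM of the FGF receptor inhibitor PD17 in place of PD03. The groups were cells at that point (0h), cells given 250 nM 4-hydroxytamoxifen for 2 h (2h) or 4 h (4h), and cells given it for 4 h and then a MEK inhibitor for a further 2 h (rev). Each group held 4 libraries, with 2 replicates of each of 2 clones (4 and 8). The comparisons ask how RNA levels moved when the kinase was switched on and how far they went back when MEK was inhibited. No culture given only the vehicle, and none kept for the full 6 h without a MEK inhibitor, was analysed here, so the effects of the agent, of time and of the kinase cannot be told apart. The labels do not say whether replicates of a clone were separate cultures, so the p-values may measure technical spread in part.

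Library totals lay between 2172651 and 12680303 counts (median 6502783). A group of 8 abundant gene models held 54.1 ± 9.31% of counts at 4h and 65.9 ± 10.6% in rev (SD, n = 4). Levels are given as CPM (counts scaled to a common library total) of the composition-scaled (TMM) library size, so 1 library's 3 counts, taken here as the floor, were worth 0.213 to 1.35 CPM. The labelled state was visible in 3 genes that respond to ERK: the mean of Dusp6, which encodes a phosphatase of ERK, was 1.25 CPM at 0h, 30.2 CPM at 2h, 55.2 CPM at 4h and 1.59 CPM in rev, and Spry4 and Egr1 were called higher at 2h and 4h and lower in rev than at 4h. Against 0h, Dusp6 was not called in rev, while Spry4 was higher (log2 1.69, edgeR adjusted p = 0.000202) and Egr1 lower (-1.36, adjusted p = 1.06e-05). The 8 embryonic stem cell markers examined summed to between 1540 and 2240 CPM in the 16 libraries, but moved in both directions. At 4h against 0h 4 of them were higher (Sox2 by 0.38 on the log2 scale) and 4 lower (Nanog by -0.68), beside 17.2% and 16.8% of all tested genes. In rev against 4h 4 were higher and 3 lower, beside 7.93% and 8.43%. Summed primitive endoderm markers (5 genes) stayed between 3.26 and 6.76 CPM, and 4 of the 5 fibroblast markers were at or under the floor in all libraries. The other one, Col1a1, had a mean of 0.519 CPM at 0h and was called higher at 2h (1.34 CPM) and in rev (1.98 CPM). Col1a1 reached 1.54 CPM, the level of the expression filter, in 0 libraries at 0h, so it was tested only through the later states. The 3 neural markers summed to 1.49 to 3.7 CPM at 0h and 4.37 to 7.38 CPM in rev. Pax6 was called higher than at 0h in all 3 later states and Sox1 in rev. Pax6 reached the filter's level in 1 library at 0h and in 3, 2 and 2 in the later states. It was therefore also tested only through the later states. Sox1 lay lower at 2h without a call (log2 -0.63), and Neurog2 had at most 1 count in a library. The part of these markers in the results was not tested.

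The response lay in 4 genes. Id1, Id3, Smad7 and Bmp4 rose within 2 h of induction, stayed high or rose further by 4 h, and fell again in rev. Between 2h and 4h, Id1 and Bmp4 rose again, while Id3 and Smad7 showed no called change, and whether these courses differ between the genes was not tested. Bmpr1a rose slightly by 4h, and Id4 and Smad5 passed no test among the states. Smad1 and Smad6 each passed in a single comparison, narrowly. Id2 was too low to pass the expression filter, so 9 of the 10 genes were tested. Id1 reached the filter's level of 1.54 CPM in 0 libraries at 0h and in all 4 at 2h and at 4h, so it was tested only because it was high after induction. Bmp4 reached that level in 2 of the 4 libraries at 0h and Id3 in 3.

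**Figure D1:**
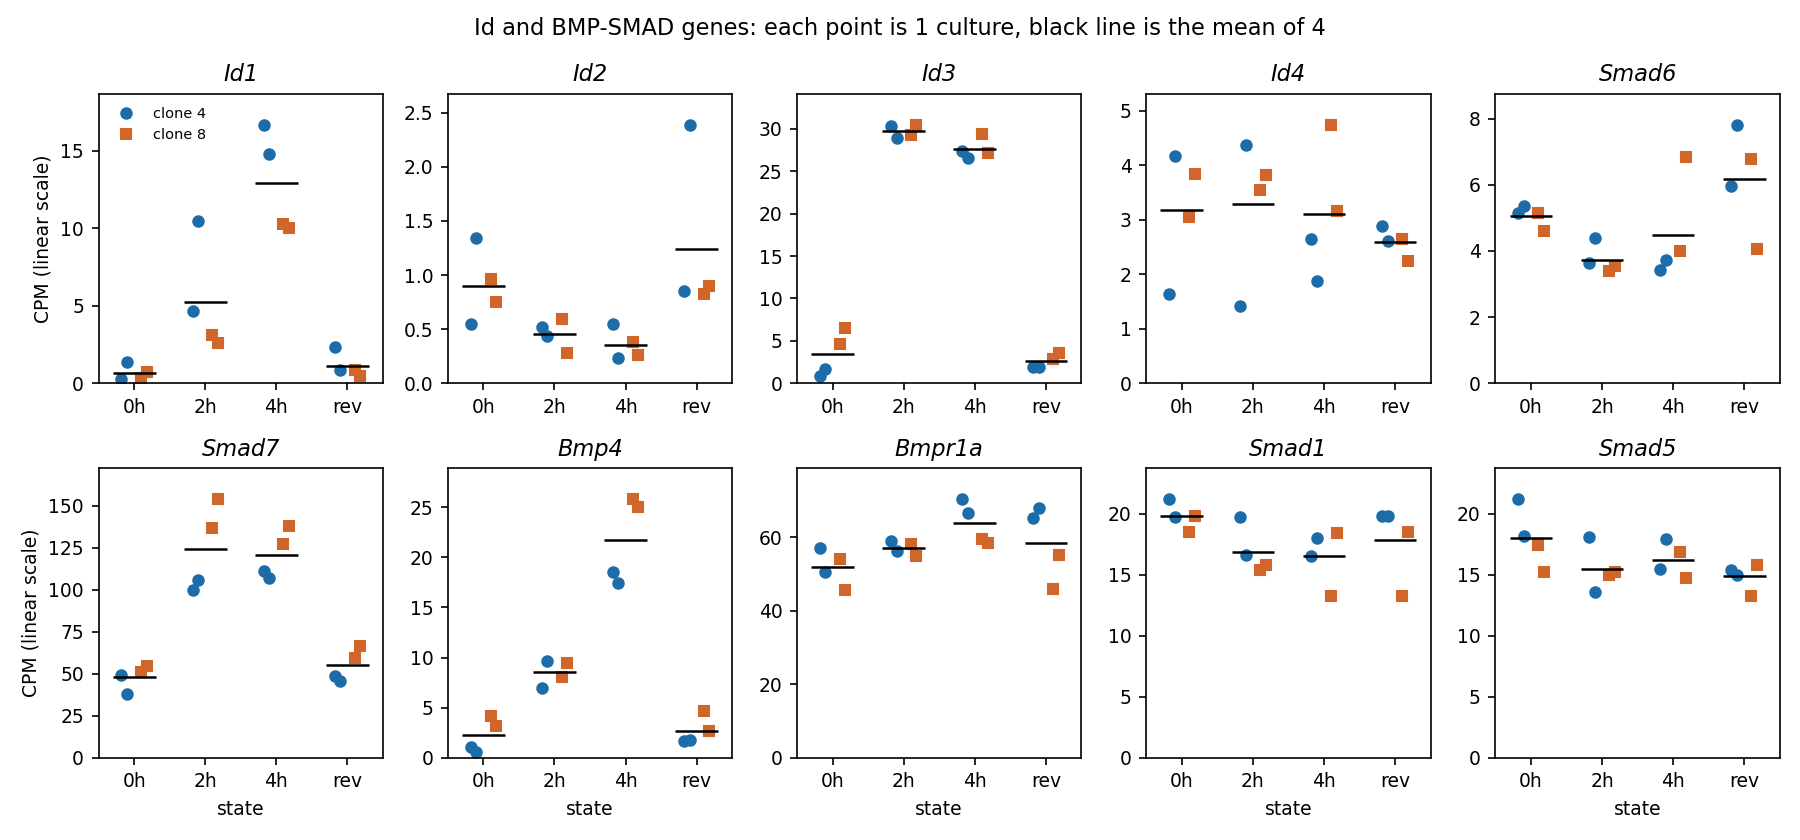
CPM on a linear axis for each of the 10 genes (panels) in the 4 states. Each point is 1 library (blue circles, clone 4; orange squares, clone 8) and the black line is the mean of 4. Id3, Smad7, Bmp4 and Id1 are high at 2h and 4h and low at 0h and in rev, and Id2 lies under 2.5 CPM throughout.

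Among the Id genes, Id1 (ENSMUSG00000042745, chromosome 2, 152736251 to 152737410, plus strand, GRCm38) rose the most at 4h of the 9 genes tested in the fit over both clones, although in clone 4 alone Bmp4 and Id3 rose more. Its level at 0h was 0.272 and 1.34 CPM in the clone 4 replicates and 0.322 and 0.748 CPM in the clone 8 replicates, an order kept below. These came from 1 to 9 counts. At 2h it was 4.66, 10.5, 3.13 and 2.63 CPM, at 4h 16.7, 14.8, 10.3 and 10 CPM, and in rev 2.35, 0.869, 0.829 and 0.451 CPM. All libraries at 2h and 4h lay above all those at 0h, all those at 4h above all those in rev, and the clone 4 replicate 2 library at 2h reached into the 4h range. In edgeR's quasi-likelihood test, Id1 was 5.51-fold higher at 2h than at 0h (log2 fold change 2.46, SE 0.34, adjusted p = 1.76e-06) and 16.3-fold higher at 4h than at 0h (4.03, SE 0.28, adjusted p = 2.26e-13). It rose 2.96-fold from 2h to 4h (log2 1.56, SE 0.2, edgeR adjusted p = 9.93e-07) and fell by 3.27 on the log2 scale in rev against 4h (SE 0.26, adjusted p = 1.29e-11). With few counts at 0h, the size of these folds is less certain than their direction. Leaving out 1 library at a time put the 4h against 0h value between 3.79 and 4.32. It put the rev against 4h value between -3.91 and -3.05.

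Id3 (ENSMUSG00000007872, chromosome 4, 136143497 to 136145755, plus strand), a close relative of Id1 that also binds E proteins, was at 0.815, 1.64, 4.66 and 6.52 CPM at 0h. It stood at 30.3, 28.9, 29.3 and 30.5 CPM at 2h, at 27.4, 26.6, 29.4 and 27.1 CPM at 4h, and at 1.92, 1.95, 2.82 and 3.61 CPM in rev. The induced libraries lay within a narrow band, far above the others, while the 0h libraries differed by clone. The rise was 7.59-fold at 2h (log2 2.92, SE 0.18, edgeR adjusted p = 2.24e-14) and 7.23-fold at 4h (log2 2.85, SE 0.19, adjusted p = 4.73e-14). Between 2h and 4h the difference was -0.07 on the log2 scale, with a 95% interval from -0.37 to 0.23 (adjusted p = 0.825), and in rev Id3 lay 3.54 below 4h (SE 0.22).

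The other Id genes did not share this course. Id4 (ENSMUSG00000021379, chromosome 13, 48261228 to 48266026, plus strand) ranged from 1.42 to 4.75 CPM over the 16 libraries, with group means of 3.18 ± 1.13 CPM before induction, 3.3 ± 1.29 and 3.1 ± 1.22 CPM after it (2h and 4h) and 2.6 ± 0.258 CPM in rev (SD, n = 4). All its groups overlapped, and at 4h against 0h its log2 fold change was -0.13 (edgeR adjusted p = 0.749). Id2 (ENSMUSG00000020644, chromosome 12, 25093799 to 25097140, minus strand) had 1 to 11 counts per library. Its mean was 0.9 ± 0.342 CPM before induction, 0.458 ± 0.132 CPM at 2h, 0.357 ± 0.144 CPM at 4h and 1.24 ± 0.765 CPM in rev, with the means after induction below the others. All its rev libraries (at least 0.829 CPM) lay above all those at 4h (at most 0.55 CPM). It was tested only with no low-count filter, where it was higher in rev than at 4h (log2 1.62, edgeR adjusted p = 0.0259) and passed in none of the other 4 comparisons, at counts too low for the size to be firm. Antisense gene models A330033J07Rik and Gm49291 overlap Id4, with at most 1 and 2 counts in a library.

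Per length of exon, Id3 and Id1 moved from low to high expression. In mean RPKM (CPM per 1000 bases of exon, over the union of annotated exons), Id3 went from 1.9 at 0h to 15.4 at 4h and Id1 from 0.578 to 11.2. Id4 stood at 0.826 and 0.806 RPKM at the same times, and Id2 at 0.369 and 0.146. Ranked by RPKM among the 12215 tested genes, Id1 moved from percentile 11.2 to 84.2 and Id3 from 38 to 89.3, with Id4 at 18 and 20. At 0h, Id4 and Id1 therefore stood close together, and at 4h both induced Id genes were over 10 times as abundant per length as Id4.

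Of the inhibitory SMADs, which dampen signalling from BMP and related receptors, Smad7 rose and Smad6 did not. Smad7 (ENSMUSG00000025880, chromosome 18, 75367529 to 75395935, plus strand) was at 49.4, 38.2, 51.3 and 54.6 CPM at 0h. It was at 100, 106, 137 and 154 CPM at 2h, at 111, 107, 127 and 138 CPM at 4h, and at 48.7, 45.6, 59.2 and 66.7 CPM in rev. The induced libraries did not overlap with the others, and clone 8 was above clone 4 in each state. The rise was 2.58-fold at 2h (log2 1.37, SE 0.08, edgeR adjusted p = 3.99e-15) and 2.52-fold at 4h (log2 1.33, SE 0.08, adjusted p = 3.85e-15). From 2h to 4h the log2 difference was -0.03 with a 95% interval from -0.2 to 0.13, and in rev Smad7 fell by 1.15 from 4h (SE 0.08, adjusted p = 7.72e-13).

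Smad6 (ENSMUSG00000036867, chromosome 9, 63953076 to 64022059, minus strand) was at 5.16, 5.37, 5.15 and 4.6 CPM at 0h and at 3.62, 4.38, 3.38 and 3.55 CPM at 2h. At 4h it was at 3.41, 3.74, 3.99 and 6.84 CPM and in rev at 5.97, 7.82, 6.79 and 4.06 CPM. The 2h libraries were all below the 0h ones, yet the difference of -0.49 (95% interval -0.94 to -0.04) missed the threshold in edgeR's test (adjusted p = 0.0831). In rev against 4h it passed (log2 0.61, SE 0.2, adjusted p = 0.0359), although the groups overlapped, and the call was lost in 4 of 9 alternative settings and without any 1 of 6 libraries. Those were the clone 4 libraries and the clone 8 replicate 1 library of 4h and of rev, and the value without each lay between 0.48 and 0.67. At 4h the mean level of Smad7 was 26.7 RPKM and that of Smad6 1.4 RPKM.

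Bmp4 (ENSMUSG00000021835, chromosome 14, 46383520 to 46390669, minus strand) encodes a ligand of the pathway. It was at 1.09, 0.597, 4.18 and 3.21 CPM at 0h and at 6.99, 9.63, 8.03 and 9.44 CPM at 2h. It reached 18.5, 17.4, 25.8 and 25 CPM at 4h and was back at 1.71, 1.74, 4.64 and 2.7 CPM in rev. No library of 0h, 2h and 4h overlapped with another of these states, and rev overlapped with 0h alone. Bmp4 rose 3.37-fold at 2h (log2 1.75, SE 0.23, edgeR adjusted p = 6.68e-07) and a further 2.76-fold from 2h to 4h (log2 1.47, SE 0.16, adjusted p = 8.22e-08). That made 9.3-fold at 4h against 0h (log2 3.22, SE 0.21, adjusted p = 1.66e-14), and in rev it fell by 2.99 from 4h (SE 0.21, adjusted p = 7.14e-13). Its mean level went from 1.01 to 9.64 RPKM, and its percentile among tested genes from 22.2 to 81.2.

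Markers of mesoderm, an early lineage that also uses Bmp4, moved in the same direction. The sum of the 4 mesoderm markers (T, Mixl1, Mesp1 and Eomes) was 5.77 to 8.96 CPM at 0h, 8.09 to 16.2 CPM at 2h, 16.3 to 25.5 CPM at 4h and 6.96 to 10.2 CPM in rev. T, the transcription factor brachyury, had a mean of 1.74 CPM at 0h and 10.1 at 4h (log2 2.54, edgeR adjusted p = 2.75e-09), and Eomes rose by 0.98 on the log2 scale. Mixl1 did not pass, and Mesp1 was at or under the floor in all libraries. The trophoblast marker Cdx2 rose by 1.95 at 4h, to a mean of 4.73 ± 4.16 CPM (SD, n = 4). It reached the filter's level in 2 of the 4 libraries of each state. Its list of 4 genes summed to 0.322 to 3.26 CPM at 0h and 1.33 to 9.13 CPM at 4h. Cdx2 was the 1 gene of the list tested. Hand1, Elf5 and Krt7 had means of 0.0475, 0.32 and 0.133 CPM at 4h, so the sum mostly follows Cdx2. Cdx2 was not called lower in rev than at 4h (-0.29, adjusted p = 0.484) and was higher than at 0h (1.66, edgeR adjusted p = 0.000867), with the list at 2.49 to 8.63 CPM. The part of these cells or genes in the Bmp4 result was not tested, and in bulk RNA more expressing cells and more RNA per cell cannot be told apart.

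The promoters of Bmp4, which rose with induction, and of Smad6, which did not, are printed to show the sequence before their start sites. Both are the 250 bases before the start in RefSeq's GRCm38.p6 annotation, 5′ to 3′ on the gene's minus strand, at chr14:46390670-46390919 (63.2% G and C) and chr9:64022060-64022309 (66.8%). The median over all 32851 such windows was 52.4%. The capitals mark CTTCCGG, the reverse complement of CCGGAAG, whose first base lies 96 bases before the start.
Bmp4: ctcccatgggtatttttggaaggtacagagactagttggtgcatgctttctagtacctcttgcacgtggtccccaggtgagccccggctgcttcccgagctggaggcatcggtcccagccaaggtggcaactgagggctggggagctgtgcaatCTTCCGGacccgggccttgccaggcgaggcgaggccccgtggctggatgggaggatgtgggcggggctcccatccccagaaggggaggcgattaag
Smad6: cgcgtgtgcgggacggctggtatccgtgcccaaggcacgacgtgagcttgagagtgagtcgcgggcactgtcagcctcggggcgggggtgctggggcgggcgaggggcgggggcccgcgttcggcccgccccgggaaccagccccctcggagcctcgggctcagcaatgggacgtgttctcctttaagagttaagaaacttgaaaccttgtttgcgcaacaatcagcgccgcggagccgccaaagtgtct
CCGGAAG is a form of the core that ETS factors bind, was added to the search after the sequences were seen, and occurs on either strand in 6.91% of all windows. It shares the letters CGGAAG with CGGAAGT, another ETS form, which is in 4.92% of windows and in none of the windows found for these genes. The Smad6 window held no match to any motif searched.

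Windows were found for 8 of the 10 genes, without Id1 and Smad7. The letters GGCGCC, a GC-rich element linked to SMAD1 and SMAD5, are in 9.59% of all windows and matched in those of Id2, Id4, Smad5 and Bmpr1a. CAGAC, a short SMAD element, is in 42.2% of windows. It matched in Id3 at 167 and 68 bases before RefSeq's start, and once in a Smad5 window. The windows of Id3 (136143572 to 136143871), Id2 and Bmpr1a, and the Smad5 window with CAGAC, lie inside the GENCODE span of their gene. The Smad5 window with GGCGCC reaches into the gene. Matches in these windows are therefore not upstream of the GENCODE gene. The SMAD palindrome GTCTAGAC (0.167% of windows), the AP-1 site TGANTCA (6.75%), the cyclic AMP element TGACGTCA (1.55%) and the CArG box (1.47%) matched in no window of these genes. All were searched on both strands, and a match describes letters, not binding.

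The receptor and the signal-carrying SMADs moved little. Bmpr1a (ENSMUSG00000021796, chromosome 14, 34410734 to 34503341, minus strand), a type I BMP receptor, was at 57, 50.4, 54 and 45.6 CPM at 0h and at 70.3, 66.6, 59.6 and 58.4 CPM at 4h. These groups did not overlap, and the rise was 1.24-fold (log2 0.31, SE 0.08, edgeR adjusted p = 0.00481). At 2h it had a mean of 57 ± 1.83 CPM and in rev of 58.5 ± 10.1 (SD, n = 4), with neither 2h against 0h nor rev against 4h past the threshold (adjusted p = 0.161 and 0.312). Smad1 (ENSMUSG00000031681, chromosome 8, 79338395 to 79399518, minus strand) went from 19.8 ± 1.1 CPM at 0h to 16.5 ± 2.32 at 4h, where every 4h library was below every 0h library. Its log2 difference of -0.29 (SE 0.11) only just passed in edgeR's test (adjusted p = 0.0472), and it was lost in 8 of 9 alternative settings and without any 1 of 10 libraries. Smad5 (ENSMUSG00000021540, chromosome 13, 56703010 to 56742377, plus strand) ranged from 13.3 to 21.2 CPM and passed in no comparison. Gene models that overlap Bmp4, Bmpr1a and Smad5 had at most 2, 6 and 1 counts in a library.

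**Figure D2:**
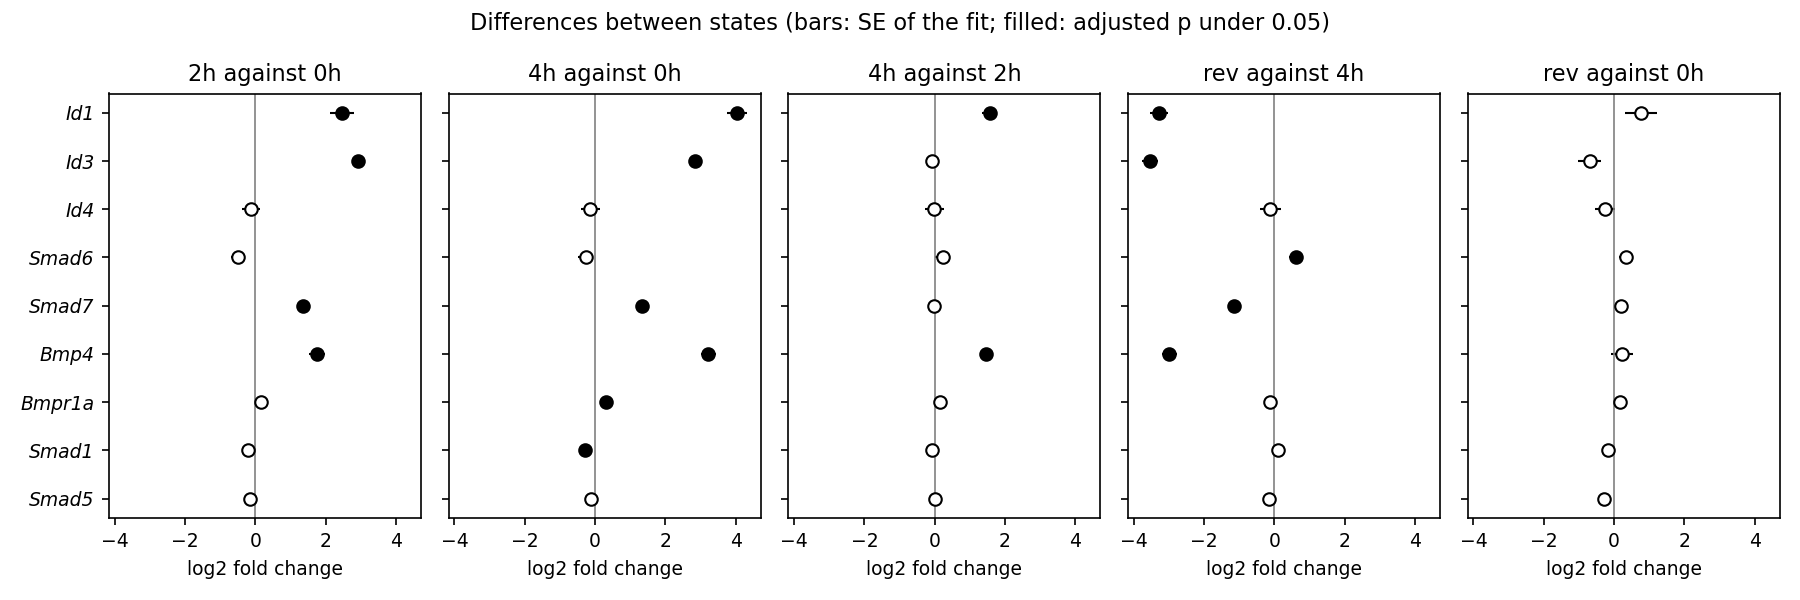
Log2 fold change (x axis) of the 9 tested genes in 5 comparisons (panels), with bars of 1 SE from the fit and filled points where the adjusted p was under 0.05. Id1, Id3, Smad7 and Bmp4 lie to the right at 2h and 4h and to the left in rev against 4h, Id1 and Bmp4 alone are filled in 4h against 2h, and no point is filled in rev against 0h.

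Counted over the 9 tested genes, 4 were higher and 0 lower at 2h than at 0h, where 11.4% of all tested genes were called higher and 9.68% lower. At the unadjusted level 1 gene, Smad6, was lower, and DESeq2 called 4 higher and 0 lower. At 4h against 0h, 5 were higher and 1 lower, against 17.2% and 16.8% of all genes, and DESeq2 called 5 and 0. At 4h against 2h, 2 were higher and 0 lower (background 3.8% and 3.52%), with the same counts at an unadjusted p under 0.05 and by DESeq2. In rev against 4h, 4 were lower and 1 higher (background 8.43% and 7.93%), and DESeq2 called 4 lower and 0 higher. The median log2 fold change of the 9 was 0.16, 0.31, 0.02 and -0.15 in these comparisons, and -0.02, -0.02, 0 and 0.01 over all genes. In a single test of any difference among the 4 states, 6 of the 9 passed, beside 40.3% of all genes. By that test's p-value Id3 stood at rank 19, Smad7 at 21, Bmp4 at 33 and Id1 at 48 of 12215 genes, and Smad6 (adjusted p = 0.00732) and Bmpr1a (adjusted p = 0.0283) also passed. The comparisons share libraries, and the 9 genes were picked with earlier results known, so the counts describe them only.

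After 2 h of MEK inhibition the libraries of all 4 induced genes overlapped with those at 0h. In rev against 0h, edgeR called 0 of the 9 genes, while 22.3% of all tested genes differed (12.4% higher and 9.86% lower). DESeq2 also called 0, and 3 genes (Id3, Smad7 and Smad5) had an unadjusted p under 0.05. For Id1 the log2 difference was 0.76 with a 95% interval from -0.26 to 1.78, and for Bmp4 0.23 with an interval from -0.47 to 0.92. For Smad7 it was 0.19, with an interval from -0.01 to 0.38. Id3 lay at -0.69, with an interval from -1.38 to 0.01. The intervals are somewhat wider than the test implies, so those of Smad7 and Id3 reach past 0 although their unadjusted p was under 0.05. These intervals leave room for a residual difference in either direction for Id1 and Bmp4. Leaving out the clone 4 replicate 1 library of 0h made Id3 lower in rev (-0.87, edgeR adjusted p = 0.0221) and Smad7 higher (0.25, adjusted p = 0.0306). Id3 was also called lower without the clone 4 replicate 2 library of 0h (-0.93, adjusted p = 0.0275), and Bmpr1a was called higher without the clone 8 replicate 1 library of rev (0.27, adjusted p = 0.0325). Without the clone 8 replicate 2 library of 0h, Id3 lay at -0.13 (adjusted p = 0.816), and without the clone 4 replicate 1 library of rev, Id1 lay at 0.12 (adjusted p = 0.918). With the 8 most abundant gene models removed, whose share was highest in rev, Id1, Id3, Smad7 and Bmp4 lay at -3.27, -3.54, -1.15 and -2.99 in rev against 4h, as with them.

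The 2 clones started from different levels of Id3 and Bmp4. At 0h, Id3 had a mean of 5.59 CPM in clone 8 and 1.23 in clone 4 (log2 difference 2.08, SE 0.33, edgeR adjusted p = 2.83e-05), and Bmp4 had 3.69 and 0.842 CPM (2.2, SE 0.44, adjusted p = 0.000738). In this comparison, which was added after the data were seen, 8.65% of all genes differed. At 2h Id3 stood at 29.9 and 29.6 CPM (log2 difference 0, SE 0.13) and Bmp4 at 8.73 and 8.31 CPM (0.19, SE 0.21). In that state clone 8 had less Id1 (-1.11, SE 0.32, edgeR adjusted p = 0.0208) and more Smad7 (0.5, SE 0.1, adjusted p = 0.000829) than clone 4, and 10.2% of all genes differed. At 4h Bmp4 was higher in clone 8 (25.4 and 17.9 CPM, log2 0.5, SE 0.16, edgeR adjusted p = 0.0309), and in rev it was again (3.67 and 1.72 CPM, log2 1.24, adjusted p = 0.0317). Smad7 was also higher and Bmpr1a lower in clone 8 in rev (0.39 and -0.43, adjusted p = 0.0389 and 0.0142). The shares of all genes that differed between clones at 4h and in rev were 11.8% and 8.07%. The counts behind clone 4 at 0h were 3 and 11 for Id3 and 4 and 4 for Bmp4, close to the floor, so the folds of clone 4 rest on few counts.

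**Figure D3:**
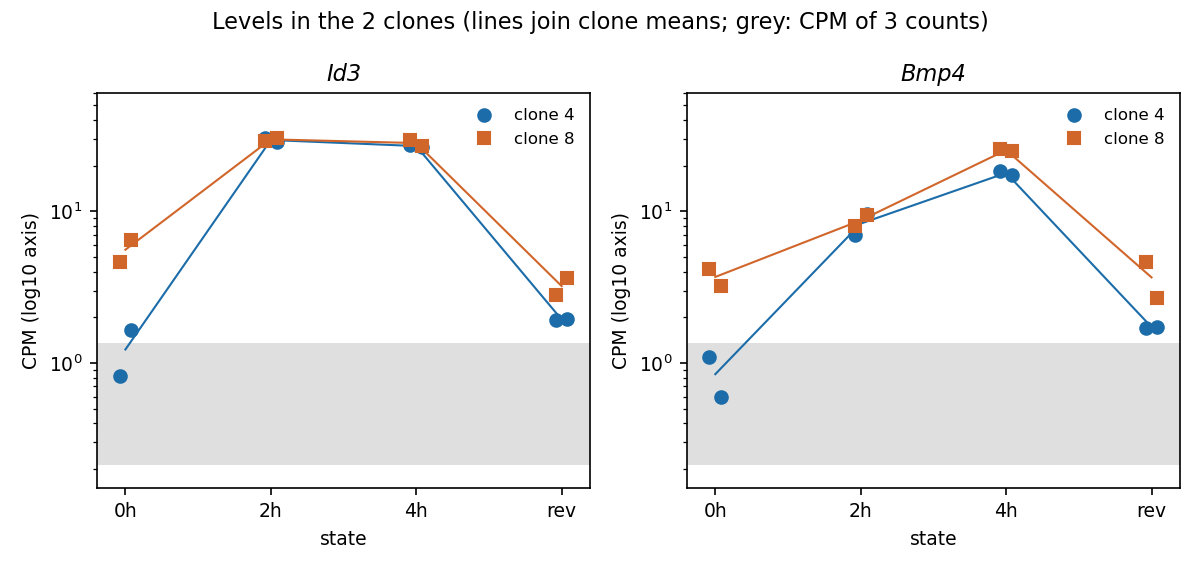
CPM of Id3 and Bmp4 (log10 axis) in each library by state, with lines through the clone means and a grey band for the CPM that 3 counts are worth over the 16 libraries. At 0h clone 8 lies above clone 4 for both genes, and at 2h the clones meet.

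The rise of Id3 differed in size between the clones on the log2 scale. Their Id3 levels were close at 2h and 4h (log2 difference 0 and 0.07), so this largely restates the difference at 0h. At 2h against 0h the rise was 4.45 (SE 0.25) in clone 4 and 2.38 (SE 0.15) in clone 8, a difference of -2.08 (SE 0.36, edgeR interaction test, adjusted p = 0.0179). At 4h against 0h it was 4.31 (SE 0.24) and 2.3 (SE 0.17), a difference of -2.01 (SE 0.36, adjusted p = 0.00636). Few genes had such a difference, 0.0901% at 2h and 0.311% at 4h, and Id3 was 1 of the 9 genes here in each case. Without the clone 4 replicate 1 or the clone 8 replicate 2 library of 0h, neither call was made, and without the clone 4 replicate 1 library of 2h the earlier one was not. The 2h call was also lost with library size as the only scaling (-2.19, adjusted p = 0.275), and DESeq2, which gave Id3 no adjusted p there, did not make it. In the fits that lost a call by leaving out a library, the difference lay between -2.01 and -1.78 at 2h and between -1.72 and -1.71 at 4h. For Bmp4 the clone 4 and clone 8 rises were 3.29 and 1.28 at 2h and 4.51 and 2.81 at 4h, but the differences of -2.01 and -1.7 missed the threshold (adjusted p = 0.118 and 0.109). In rev against 4h, edgeR called a difference between clones in 0 of the 9 genes, with 0 at an unadjusted p under 0.05 and 0 by DESeq2, and in 0.00819% of all genes.

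Across the 4 states together, clone 8 had more Smad7 (98.3 and 75.7 CPM, log2 0.37, SE 0.06, edgeR adjusted p = 4.45e-06) and more Bmp4 (log2 0.61, SE 0.14, adjusted p = 0.00125) than clone 4. It had less Id1 (3.54 and 6.44 CPM, log2 -0.84, SE 0.18, adjusted p = 0.000435), less Bmpr1a (-0.19, adjusted p = 0.0157) and less Smad1 (-0.22, adjusted p = 0.042). The Smad1 call was lost without any 1 of 9 libraries, with no low-count filter and by DESeq2 (adjusted p = 0.129 and 0.0613), and the Bmpr1a call without the clone 8 replicate 1 library of rev (-0.14, adjusted p = 0.0789). The Smad7 and Bmp4 calls were lost with library size as the only scaling (0.1 and 0.46). These 5 calls of 9 stand beside 29.1% of all tested genes that differed between the clones. At 4h against 0h Smad7 rose by 1.34 in clone 4 and 1.31 in clone 8, a difference of -0.03 (SE 0.15), which was -0.65 (edgeR adjusted p = 0.281) with library size as the only scaling. For Id1 the rises were 4.02 and 4.09, and the difference of 0.08 (SE 0.65) ran from -1.68, without the clone 4 replicate 2 library of 0h, to 0.88, without the clone 8 replicate 2 library of 0h. Neither difference was called, and those of Id1 are too imprecise to show that the clones responded alike.

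Of 51 other pathway genes 32 were tested, with 4 higher and 4 lower at 2h against 0h, 10 higher and 4 lower at 4h against 0h, and 4 higher and 0 lower in rev against 4h. The shares of all tested genes called higher and lower in these comparisons were 11.4% and 9.68%, 17.2% and 16.8%, and 7.93% and 8.43%. In rev against 0h, 7 were higher and 0 lower, beside 12.4% and 9.86% of all genes. By edgeR's unadjusted p under 0.05, 6 were lower in rev against 4h and 0 in rev against 0h, and DESeq2 called 0 lower in both. Their median log2 fold change was 0.09, 0.2, 0.06 and 0.16 in the 4 comparisons. By the rule for naming (a called change of at least 1 on the log2 scale and a mean of at least 5 CPM) 1 gene stood out, Rgma, a BMP co-receptor. Rgma moved against the induced genes, from a mean of 20.4 ± 0.929 CPM at 0h to 8.54 ± 2.51 at 2h and 7.55 ± 2.43 at 4h, and to 31.3 ± 1.25 in rev (SD, n = 4). It fell by 1.19 at 2h (SE 0.13, edgeR adjusted p = 2.76e-08) and by 1.49 at 4h (SE 0.15, adjusted p = 6.68e-10). In rev it lay 0.65 above 0h (SE 0.12, adjusted p = 0.000155). An antisense model that overlaps it had at most 1 count in a library.

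The genes named in this paragraph fell outside that rule and were chosen after their values were seen. Of the 9 other ligand genes 3 were tested. Bmp7 fell at 4h from 8.75 to 4.98 CPM (log2 -0.75, edgeR adjusted p = 0.00458), while Gdf3 rose by 0.4 and Bmp8a, at a mean of 1.71 CPM, by 1.56. Bmp8a reached the filter's level in 0 libraries at 0h, so it was tested only through the later states, where it is higher. Of the 7 receptor or co-receptor genes tested, Acvr2a rose at 2h (log2 0.58, adjusted p = 0.000657), and Bmpr2, the type II BMP receptor, stood at 35.2 CPM at 0h and 37.1 at 4h, with no call. Among the SMADs shared with or used by TGF-beta signalling, Smad3 fell from 23.3 to 13.1 CPM at 4h (-0.81, adjusted p = 4.75e-06) and rose by 0.57 in rev, whereas Smad2 and Smad4 rose by 0.43 and 0.35 at 4h.

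Of 17 antagonists and inhibitors 10 were tested, and at 4h against 0h 4 rose and 1 fell, beside 17.2% and 16.8% of all genes. DESeq2 called 3 higher and 1 lower. Skil, Twsg1, Smurf1 and Tob2 rose by 0.48, 0.36, 0.29 and 0.29, and Tob1 fell by 0.72 and rose by 0.87 in rev (edgeR adjusted p = 2.24e-05 and 3.67e-06). The secreted antagonists Nog, Chrd and Grem1 were too low to test. Of 9 further genes known as BMP targets 6 were tested. At 4h Gata3 and Zfp423 rose by 1.33 and 0.83, from means under 2.5 CPM, and Gata2 fell by 0.89 at 2h (edgeR adjusted p = 0.00826) and rose by 1.51 in rev against 4h. Gata3 reached the filter's level in 1 library before induction and in 1, 3 and 3 libraries of the later states. It was therefore tested only through those later states, where it is higher. In rev these 3 targets were higher than at 0h, Gata3 by 2.04, Gata2 by 1.15 and Zfp423 by 0.78, and the median of the 6 was 0.73. These 3 of 6, which include Gata3 with the limit above, stand beside 12.4% of all genes called higher in rev against 0h. DESeq2 called 2 of the 6 higher. Dusp9 stood at 13.6 and 15.3 CPM at 0h and 4h and was not called. The 3 E-protein genes Tcf3, Tcf4 and Tcf12, whose products Id proteins bind, had 0 calls in the 5 comparisons by edgeR and by DESeq2. Of all tested genes, edgeR called between 7.32% (4h with 2h) and 33.9% (4h with 0h) in these comparisons. With only 3 genes, 0 calls cannot show that the E-protein genes moved less than others. By edgeR's unadjusted p under 0.05 there was 1 in the comparison of 4h with 0h and 2 in that of rev with 0h. Tcf3 stood at 70.7 CPM at 0h and 78 at 4h.

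**Figure D4:**
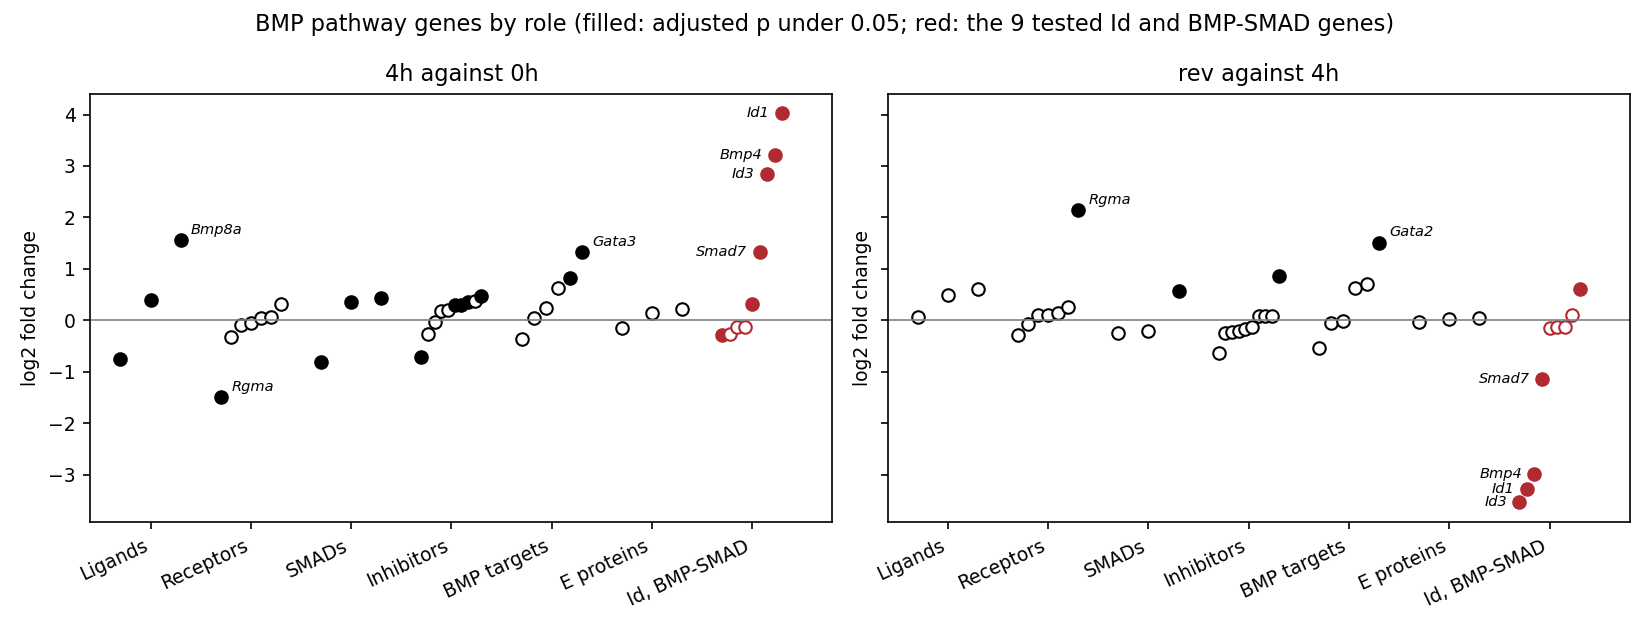
Log2 fold change (y axis) of the 32 tested pathway genes by role and of the 9 tested Id and BMP-SMAD genes (red), for 4h against 0h (left) and rev against 4h (right), filled where the adjusted p was under 0.05. Names are given for called changes of at least 1. The red points of Id1, Id3 and Bmp4 lie beyond all other points, above 0 on the left and below 0 on the right, and Rgma lies on the opposite side.

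Pearson's correlation of log2 CPM, with each clone's mean subtracted, was taken with 8645 genes of a mean of at least 5 CPM. It gave the genes of most similar pattern over the 16 libraries, for the 3 genes with the smallest p in the test of any difference. For Id3 these were Hs3st3b1 (r = 0.971), Tiparp (0.968) and Topors (0.967). For Smad7 they were Zfp36l2 (0.987), Trib1 (0.982) and Spry4 (0.979), and for Bmp4 Dppa4 (0.958), Pdk1 (0.955) and Epha2 (0.955). Smad7 came at place 14 in the order for Id3 (r = 0.936), and Bmp4 at place 40 (0.9). The points share the 4 states and the depth of their libraries, so these values describe likeness of course only.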

How the data were processed

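Ribosomal RNA-depleted total RNA was sequenced from 16 libraries of 1 cell line, 4 per state. The authors deposited unnormalised read counts for each gene, per the labels, and all values were whole numbers. The submitters' processing notes name bcl2fastq 2.19.1, STAR 2.5.3a and mm10, and the counting tool, annotation and strand setting were not given in the sources used here. Of 52636 identifiers 52489 were matched to GENCODE M21 (GRCm38) for symbols, positions and lengths, and 147 were not.

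The tests used edgeR 4.0.16 under R 4.3.3 (filterByExpr, which left 12215 genes, TMM scaling, quasi-likelihood tests with state and clone, two-sided, Benjamini-Hochberg adjustment over all tested genes at 0.05). A model of the 8 state and clone cells gave the differences between clones. SEs were derived from the F statistic and 95% intervals used 11 residual degrees of freedom. The tests used more, so the intervals are somewhat wider than the tests imply. Alternatives included DESeq2 1.42.0, other scalings and filters, and leaving out each library. Comparisons of the clones within a state were added after the data were seen. The floor of 3 counts covers counting error only. On simulated data with 11892 genes tested, 91% of genes with a log2 change of 1 were recovered at 4h against 0h. Of those with a change of 2, 100% were, with 9 false calls in that comparison. In rev, the simulated levels went only part of the way back, so the changes from 4h were smaller. Of the same genes, 51% and 84.7% were recovered in rev against 4h.

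The genes, lists and tests were chosen with earlier results of these data known. The rule for naming list genes was a called log2 change of at least 1 in any comparison and a mean of at least 5 CPM. No 2 libraries were identical. Some genes of the pathway list are counted but not named.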

Additional observations from a re-analysis of the deposited data

Results flagged for a closer look

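For Id2, the clone 4 replicate 2 library of rev stood apart at 2.39 CPM, from 11 counts, where the other 3 rev libraries were at 0.829 to 0.901 CPM. For Smad6, the clone 8 replicate 2 library of 4h stood apart at 6.84 CPM, where the other 3 were at 3.41 to 3.99 CPM. These were 2 of the 40 groups of 4 values examined, and chance gives about 1 in 20. The rise of Id3 differed between the clones, by -2.08 on the log2 scale at 2h against 0h and by -2.01 at 4h against 0h (clone 8 minus clone 4, edgeR adjusted p = 0.0179 and 0.00636). The first was not called with library size as the only scaling (adjusted p = 0.275) or by DESeq2, and both were lost without the clone 4 replicate 1 or the clone 8 replicate 2 library of 0h. Both largely restate the difference in Id3 between the clones at 0h.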

How the results depend on the processing

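The calls of Id1, Id3, Smad7 and Bmp4 in the comparisons of 2h and 4h with 0h and of rev with 4h, and of Id1 and Bmp4 at 4h against 2h, kept their direction and stayed past the threshold in 9 of 9 alternatives and without each of the 16 libraries. Bmpr1a at 4h was lost in 1 of 9 (library size without a composition factor, edgeR adjusted p = 0.349). Smad1, the 1 gene lower at 4h, dropped to 0 genes with RLE factors, library size, the 8 models removed, no low-count filter, no clone covariate, only the groups compared and DESeq2. Smad6, the 1 gene higher in rev against 4h, lost its call with no low-count filter (0.6, adjusted p = 0.0541), where the 1 gene called higher was Id2, and the count dropped to 0 with library size, no clone covariate and DESeq2. The cause was not tested.

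Library size without a composition factor moved the median of all genes to -0.41 in rev against 4h, -0.32 in rev against 0h and 0.1 at 4h against 2h. It called 338 genes at 2h and 881 at 4h against 0h, 100 at 4h against 2h, 1010 in rev against 0h, 1681 with any difference, 2125 between clones, and 3 and 0 for the clone differences at 2h and in rev. The share of calls that were higher was 3.3% (48.5% with TMM) in rev against 4h, 10.4% (55.8%) in rev against 0h, 88% (51.9%) at 4h against 2h and 62.9% (50.6%) at 4h against 0h. It left 0 of these genes higher in clone 8 and 0 with a clone difference at 2h. Signs turned for Id3 (0.05), Id4 (0.06), Smad7 (0.07) and Smad1 (0.06) at 4h against 2h, Smad1 (-0.33) in rev against 4h, Smad7 (-0.16), Bmp4 (-0.09) and Bmpr1a (-0.16) in rev against 0h, Smad6 (-0.23) between clones, and the clone differences of Id1 at 4h (-0.58) and Smad7 in rev (-0.05). With no low-count filter, 68, 127 and 16 genes had a clone difference at 2h, 4h and in rev, and Smad5 turned to -0.01 at 4h against 2h. With no clone covariate, 1209, 219, 881, 1452 and 2649 genes were called in the comparisons 2h with 0h, 4h with 2h, rev with 4h, rev with 0h and any state. Id4 turned to 0.11 at 4h against 2h with only the groups compared, and Smad6 between clones to -0.13 at 0h alone. DESeq2 called 22 genes for the clone difference at 4h and 0 of these genes at 2h, where its adjusted p for Id3 was not given.

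Same-numbered libraries of a clone had residual correlations of 0.0132 on average (-0.318 to 0.21 over 12 pairs). In clone 8 the pairs among 0h, 2h and 4h had 0.13 to 0.21, and not every pair was over 0.1, so the numbers were not taken to pair the libraries. With a replicate block by clone and number, 2475, 4068, 794, 1949 and 2671 genes were called in the comparisons 2h with 0h, 4h with 0h, 4h with 2h, rev with 4h and rev with 0h, and 4822 in any state. Of these genes, 4 were higher at 2h, 5 higher and 0 lower at 4h, 2 higher at 4h against 2h, 1 higher and 4 lower in rev against 4h, 0 in rev against 0h, and 6 in any state.

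Leaving out 1 library at a time gave 564 to 967 genes at 4h against 2h, 0 to 1 gene lower at 4h, 0 to 1 higher in rev against 4h, 0 to 1 higher and 0 to 1 lower in rev against 0h, 1 to 3 lower in clone 8, and 1 to 35, 6 to 102 and 0 to 6 genes with a clone difference at 2h, 4h and in rev, with 0 to 1 of these genes at 2h and at 4h. Differences that were not called and crossed 0 were those of Id4 (-0.24 to 0.1, -0.35 to 0.15, -0.25 to 0.13, -0.31 to 0.08 and -0.43 to 0.03 in the 5 comparisons), Id3 (-0.12 to 0.02), Smad6 (0 to 0.34), Smad7 (-0.07 to 0.03) and Smad5 (-0.03 to 0.08) at 4h against 2h, Bmp4 in rev against 0h (-0.13 to 0.51), Smad6 between clones (-0.1 to 0.07), and the clone differences of Id1 (-2.15 to 0.41, -1.68 to 0.88 and -1.35 to 0.39) and of Smad7 at 4h (-0.2 to 0.17). Id2 had 1 to 11 counts per library, and Id1 1 to 9 at 0h, so their values are imprecise.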
